A study of Homo sapiens with 19 samples.

Results

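Nuclear-encoded subunits of the respiratory chain and ATP synthase were followed in A549 cells before and after nanostraw electroporation (NEE). A549 is an established cell line from a human lung adenocarcinoma. In NEE, brief electric pulses through hollow nanoscale tubes open the cells and let RNA out for sampling. The members are the protein-coding genes whose symbols name a subunit of complexes I to V, without assembly factors and pseudogenes. They are 86 of the 62700 genes in the count files, with 37 in complex I, 4 in complex II, 10 in complex III, 17 in complex IV and 18 in ATP synthase (complex V). Lysates came from A549 monolayers and A549 spheroids taken before NEE, right after NEE, 2 h after NEE or 24 h after NEE, with 2 replicates in each of the 8 groups. RNA drawn by NEE from A549 monolayers gave 3 technical replicates, so its spread holds no difference between cultures. The labels do not say whether the lysate replicates are separate cultures, so p-values measure the spread between these libraries, which may be technical. No genotype or drug distinguishes the groups, and all cells are of 1 line.

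Oxidative phosphorylation passes electrons from NADH and succinate through complexes I and II to coenzyme Q, then through complex III, cytochrome c and complex IV to oxygen. Complexes I, III and IV pump protons, and ATP synthase uses the proton gradient to make ATP. A few core subunits are encoded in mitochondrial DNA and all others, including the whole of complex II, in the nucleus. Many of the nuclear transcripts are short, and the transcription factors NRF1 and NRF2 (the ETS factor GABP) are known to bind promoters of many of these genes.

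Totals per library ran from 16031034 to 24571083 counts in the 16 lysates and from 13626934 to 18512985 in NEE-sampled RNA. In CPM, counts scaled to a common library total, 3 counts correspond to 0.122 to 0.22. The reads carry no molecular identifiers, and this floor covers counting error only. The 37 genes of mitochondrial DNA had 0 counts throughout the 19 libraries, so the nuclear subunits could not be set against them. The A549 and lung epithelial markers summed to 20037 to 33996 CPM in 15 lysate libraries and to 25572 to 31032 in the NEE-sampled libraries. Single markers differed in NEE-sampled RNA. CDH1, at 6.942 to 14.64 CPM, lay below every lysate, the lowest of which had 15.17. KRT18, KRT19 and AKR1C1 lay above every lysate, and EPCAM, KRT8 and AKR1B10 overlapped the lysates. Replicate 1 of the monolayers before NEE stood apart, with 7306 CPM of the A549 and lung epithelial markers. It held 582.9 CPM of 13 natural killer and T cell markers, which summed to 16.2 to 57.49 in the other 15 lysates. Its 5 fibroblast markers summed to 29.68 CPM, of which COL1A1 gave 26, against 3.423 to 10.29. PECAM1 gave all 15.73 CPM of its 3 endothelial markers, against 0.7024 to 4.306. In that library the members took 0.707% of all counts, against 0.903% to 1.158% in the other 15.

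Levels are CPM scaled by TMM, a factor that balances library composition. Of the 86 members, 74 had a lysate median of at least 5 CPM and 15 of at least 100 CPM, and 81 passed the filter on low counts in both fits. The 5 that did not pass were the muscle isoforms COX6A2 and COX7A1, the testis isoforms COX7B2 and COX8C, and ATP5MGL. COX6A2, COX7B2 and ATP5MGL had 0 counts in every library, and COX7A1 and COX8C had 14 and 3 counts in all libraries together. COX6B2, another testis isoform, reached at most 1.264 CPM in a lysate and was at 0 in the 3 NEE-sampled libraries. Their widely expressed counterparts COX6A1, COX7A2, COX7B, COX8A and COX6B1 had lysate levels of 7.37 to 83.3 CPM over libraries and genes.

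Per kilobase of coding length, the catalytic beta subunit ATP5F1B led the lysates with a median of 1625 CPM per kb, ahead of the alpha subunit ATP5F1A (621.8 CPM per kb). In complex III the Rieske iron-sulfur protein UQCRFS1 stood at 555.9 CPM per kb, cytochrome c1 (CYC1) at 459.9 and the core protein UQCRC1 at 434.1. In complex II the membrane anchor SDHC stood at 390.6 CPM per kb and the flavoprotein SDHA at 14.73. By this measure complex IV was led by COX7A2L, which links supercomplexes, at 382.5 CPM per kb, with COX4I1 at 285.5. Without division by length COX4I1 was above COX7A2L in monolayers. Its means were 138.3 CPM before and right after NEE and 134.4 at 2 h and 24 h, against 104 and 123.7. The divisor leaves out untranslated bases, whose reads may be counted, so the order of genes per kilobase depends in part on it. In complex I NDUFV1, in the electron input arm, stood at 227.5 CPM per kb. NDUFA7, NDUFA13, NDUFV2 and ATP5ME, which are general subunits of their complexes, were low, with highest lysate levels of 0.6207, 1.643, 4.265 and 2.566 CPM. Another gene overlaps 33.5%, 21.0%, 28.4% and 61.6% of their exon length in turn, and the part of this overlap in their counts was not tested. In all, exons of 46 members overlap another listed gene, 18 of them over at least 20%. The 189 listed pseudogenes of 50 members held 0.152% of the counts of members and pseudogenes together, and how the authors treated reads that match several places is not given in the sources used here.

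The promoters of the 4 members with the smallest p in the comparison of late with early spheroids are shown because these 4 are all complex IV genes. Each sequence is the 250 bases before a RefSeq start on GRCh38.p14, written 5′ to 3′ on the gene's strand, and COX7A2 has 2 listed starts. Capitals mark a match to one of 3 motifs.
COX8A, chr11:63974370-63974619, plus strand: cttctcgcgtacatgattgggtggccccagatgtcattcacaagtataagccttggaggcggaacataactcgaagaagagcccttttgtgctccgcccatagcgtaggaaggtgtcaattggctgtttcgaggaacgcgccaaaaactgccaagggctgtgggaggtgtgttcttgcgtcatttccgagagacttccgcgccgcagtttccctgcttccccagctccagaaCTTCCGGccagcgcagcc
COX6B1, chr19:35648073-35648322, plus strand: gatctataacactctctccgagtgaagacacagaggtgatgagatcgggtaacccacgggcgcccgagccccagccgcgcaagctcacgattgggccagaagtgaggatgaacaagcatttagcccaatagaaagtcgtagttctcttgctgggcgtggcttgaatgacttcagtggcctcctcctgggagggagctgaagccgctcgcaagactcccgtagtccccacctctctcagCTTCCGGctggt
NDUFA4, chr7:10940154-10940403, minus strand: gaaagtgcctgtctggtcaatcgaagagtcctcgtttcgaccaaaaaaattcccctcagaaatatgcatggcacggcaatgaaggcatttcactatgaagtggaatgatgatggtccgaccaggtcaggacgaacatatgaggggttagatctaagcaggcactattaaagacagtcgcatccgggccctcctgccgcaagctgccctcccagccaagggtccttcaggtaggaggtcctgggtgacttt
COX7A2, chr6:75243802-75244051, minus strand: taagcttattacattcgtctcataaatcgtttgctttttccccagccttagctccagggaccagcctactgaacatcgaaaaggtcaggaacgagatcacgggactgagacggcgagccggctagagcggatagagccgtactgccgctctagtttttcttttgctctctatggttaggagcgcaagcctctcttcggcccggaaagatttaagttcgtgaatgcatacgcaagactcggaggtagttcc
COX7A2, chr6:75250299-75250548, minus strand: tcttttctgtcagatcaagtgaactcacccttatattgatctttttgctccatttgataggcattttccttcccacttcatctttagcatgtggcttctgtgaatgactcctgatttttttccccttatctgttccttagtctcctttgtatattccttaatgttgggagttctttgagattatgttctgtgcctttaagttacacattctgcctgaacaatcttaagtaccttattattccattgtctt

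COX8A and COX6B1 each hold 1 match to the ETS motif, on the reverse strand within the last bases of the window. The other windows shown hold none of the 3 motifs searched. RefSeq entries were found for 71 members, with 85 starts. The NRF1 motif, GCGCA and GCGC with any 1 base between them on either strand, matched at 15 starts (17.6%), against 5.07% of all 35116 starts. The ETS motif, CCGGAAG on either strand, matched at 19 starts (22.4%), against 8.52% of all starts. The YY1 motif, AAGATGGC on either strand, matched at 2 starts (2.35%), against 1.36%. SDHD and UQCR11 held both the NRF1 and the ETS motif, and the YY1 matches were both in ATP5PF. Matches of the palindromic NRF1 motif can overlap themselves, and each start was counted once. The ETS motif stands upstream of NDUFS1, SDHB, UQCRH, UQCRQ, COX5B, COX6A1 and ATP5PD among others, and the NRF1 motif upstream of SDHA, UQCRC1, UQCRFS1, NDUFA12, ATP5F1C and ATP5PO. A match is a description of letters and not a measured site.

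NEE-sampled RNA was compared with the 8 monolayer lysates, which asks how the subunit transcripts drawn by NEE relate to those in the cells. Members took 1.5%, 1.574% and 1.673% of counts in the NEE-sampled libraries, above every lysate. Of 81 tested members 66 were higher in NEE-sampled RNA, 2 were lower and 13 were not called (edgeR quasi-likelihood test, adjusted p under 0.05). Among all 17067 genes tested 22.5% were called higher and 26% lower. The median log2 fold change was 1.59 over members and −0.20 over all genes. Of the 81, 65 lay above all 8 monolayer libraries in each NEE-sampled library, as did 21.3% of all genes. The counts by complex were 28 of 37 higher in complex I, 3 of 4 in complex II, 10 of 10 in complex III, 12 of 13 in complex IV and 13 of 17 in ATP synthase.

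**Figure D1:**
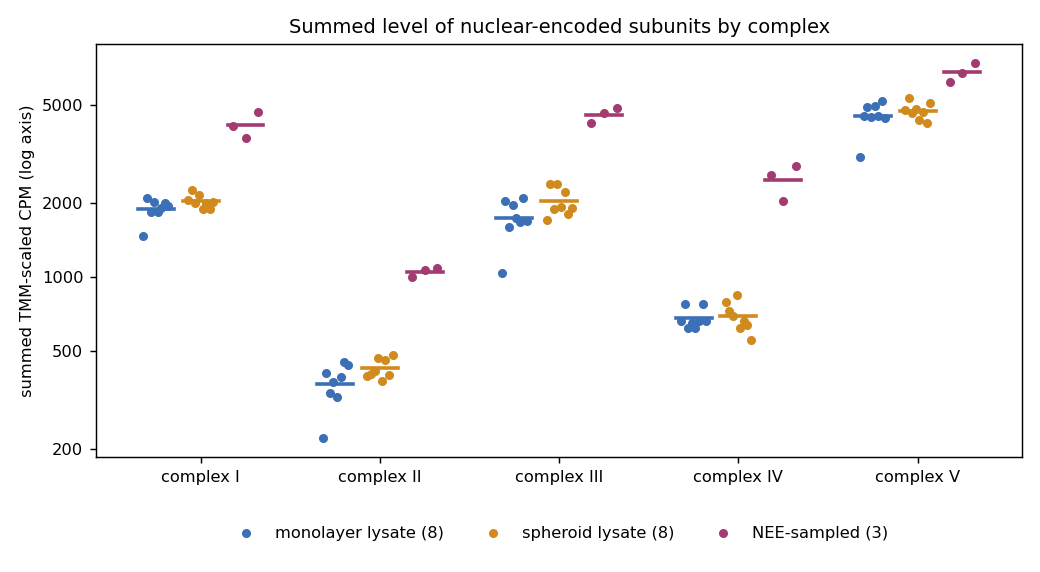
Summed TMM-scaled CPM of the members of each complex (log axis) in 8 monolayer lysates, 8 spheroid lysates and 3 NEE-sampled libraries. Points are libraries and bars are group means. The NEE-sampled points lie above all lysates in each complex, with the smallest gap in ATP synthase, and the lowest monolayer point in complexes I, II, III and V is replicate 1 before NEE.

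By ratio, the sums were furthest apart in complex IV and closest in ATP synthase. Complex IV members summed to 2038 to 2845 CPM in NEE-sampled RNA, against 618.1 to 780.1 in monolayers. ATP synthase members summed to 6228 to 7466, against 3076 to 5202. The lysate groups themselves overlapped in all 5 complexes, and spheroids spanned 555.3 to 842.6 CPM in complex IV and 4235 to 5353 in ATP synthase.

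Among ATP synthase genes the largest difference was in the delta subunit ATP5F1D (ENSG00000099624, chr19:1241746-1244826 on GRCh38), part of the central stalk. Its levels were 250.9, 180.8 and 252.8 CPM in NEE-sampled RNA, and 7.773 to 17.51 in monolayers with a median of 11.81. All 3 NEE-sampled libraries lay at least 10 times above the highest monolayer library, and the log2 fold change was 4.21 ± 0.268 (SE, edgeR adjusted p = 9.47e-07). The c-ring gene ATP5MC2 stood at 444.6, 319.8 and 462.5 CPM, against 54.23 to 81.44 with a median of 57.64 (2.70 ± 0.168, adjusted p = 8.6e-07 by edgeR). The other c-ring genes, which encode the same mature protein, were higher by less, at 1.18 for ATP5MC1 and 1.38 for ATP5MC3. The peripheral stalk subunit ATP5PO rose by a log2 fold change of 2.00. The catalytic head overlapped the lysates. ATP5F1A had 814.9, 1041 and 1079 CPM against a monolayer median of 1031, and ATP5F1B had 2716, 3352 and 3284 against 2402. Their log2 fold changes of −0.11 and 0.30 were not called (edgeR adjusted p = 0.58 and 0.15).

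In complex I, NDUFS7, which carries an iron-sulfur cluster near the quinone site, stood at 68.8, 47.07 and 83.51 CPM against 6.236 to 9.683 (log2 fold change 3.09 ± 0.228, edgeR adjusted p = 1.64e-06). The membrane subunit NDUFB11 stood at 232.2, 153.9 and 254.6 CPM against 19.42 to 33.31 (3.05 ± 0.216, edgeR adjusted p = 1.41e-06). Other genes overlap 49.1% and 44.9% of the exon length of these 2 genes, and the part of those genes' reads in the values was not tested. NDUFB7 (2.50) has no such overlap, nor has the acyl carrier protein NDUFAB1, at 173.8, 130.8 and 181.4 CPM against 26.49 to 44.94 (2.17). NDUFS1, the largest subunit of the electron input arm, went the other way with 62.3, 118.6 and 81.95 CPM against 163 to 258.5, with a log2 fold change of −1.29 ± 0.242 (edgeR adjusted p = 0.000944). NDUFV1 (0.72) was higher, and NDUFV2 was under 1 CPM in each NEE-sampled library.

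Complex II split within its 4 genes. SDHA, the flavoprotein that oxidizes succinate, had 13.26, 16.77 and 13.69 CPM against 26.86 to 31.57 in monolayers, so that the groups did not overlap (log2 fold change −1.02 ± 0.218, edgeR adjusted p = 0.00211). The iron-sulfur subunit SDHB stood at 302.7, 305.9 and 365.2 CPM against 41.58 to 138.1 and the anchors SDHC and SDHD rose too, with log2 fold changes of 1.59, 1.43 and 1.88. With the 3 technical replicates summed into 1 library, an alternative added after the data were seen, SDHA was no longer called (−0.90, edgeR adjusted p = 0.0757). In that fit 56 members were higher and 1 lower, and 5030 of 19112 genes were called in all.

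In complex III the small subunits UQCR10 (2.40) and UQCRH (2.33), the hinge protein, had the largest log2 fold changes and the large core proteins UQCRC1 (0.52) and UQCRC2 (0.54) the smallest. UQCRFS1 had 1460, 1465 and 1624 CPM against 221 to 542.6 (1.80), and CYC1 1269, 1359 and 1460 against 101 to 546.7 (1.92), with no overlap in either. UQCRHL, a near copy of UQCRH whose reads may be shared with it, was at 4.005, 2.431 and 2.44 CPM and its call is uncertain. In complex IV the cytochrome oxidase subunits COX8A (2.55), COX5B (2.32) and COX5A (2.23) had the largest log2 fold changes and COX6A1 (0.63) the smallest call. COX5A, which has no exon overlap, stood at 476.1, 390.9 and 539.4 CPM against 76.57 to 118.3, and COX4I1 at 584.9, 424 and 756.4 against 104.2 to 176.1.

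**Figure D2:**
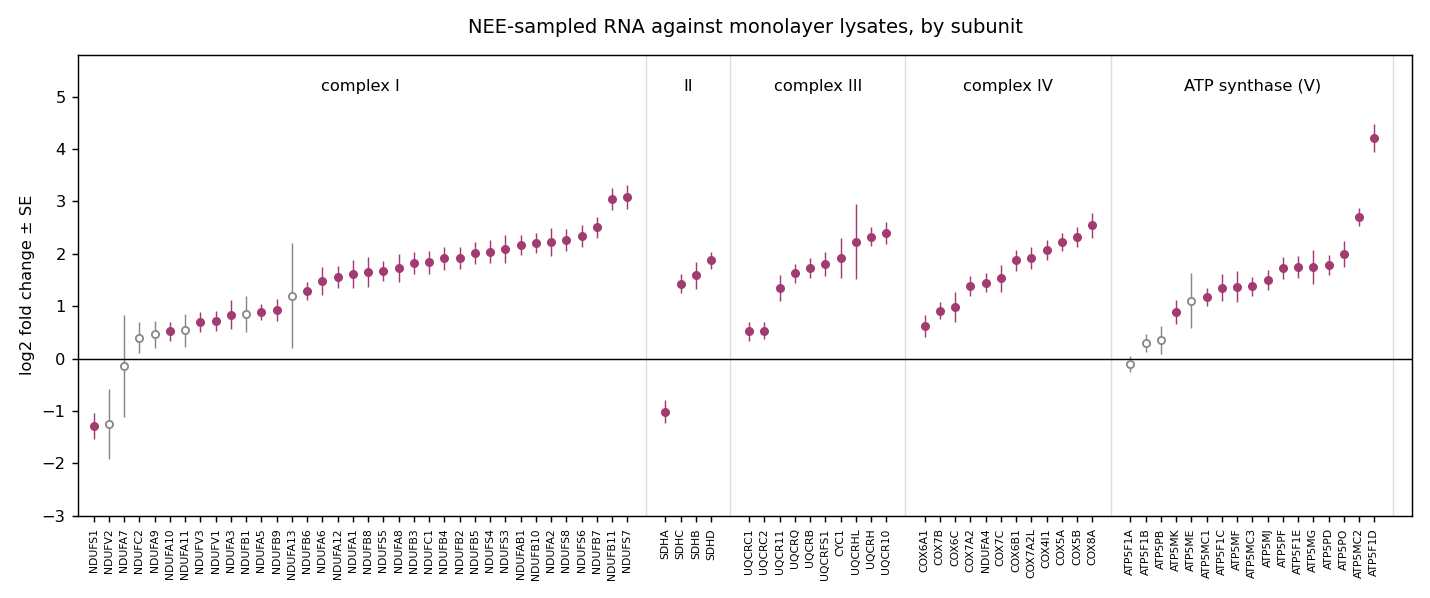
Log2 fold change of NEE-sampled RNA against the mean of the 4 monolayer groups for tested members, ordered within each complex, with SE. Filled points passed an edgeR adjusted p of 0.05 and open points did not, and COX6B2, at 0 in NEE-sampled RNA, is not drawn. NDUFS1 and SDHA are the filled points below 0 and ATP5F1D is the highest.

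The difference between NEE-sampled RNA and lysates varied with coding length, for genes at large more than for members. Pearson's r of the log2 fold change with log2 coding length was −0.28 and Spearman's rho −0.16 across 81 members, against −0.35 and −0.43 across 13449 coding genes. In protein-coding genes of up to 400 coding bases the median log2 fold change was 1.48 over 650 genes and 1.58 over 40 members. Above 400 and up to 600 bases it was 1.05 over all and 1.88 over 21 members, and above 600 and up to 1000 bases 0.54 and 1.86 over 10 members. Above 1000 and up to 1500 bases it was −0.12 and 0.52 over 6 members, and above 1500 bases −0.88 and −0.56 over 4 members, which include NDUFS1 and SDHA. Members therefore stood close to other coding genes in the shortest class and above them in the next 3. Other measures moved with the groups too. The most abundant gene took 9.68% to 13.3% of counts in NEE-sampled libraries, the natural killer and T cell markers summed to 0.949 to 2.917 CPM there with 3 of 13 at 0, and the RNA was purified with another kit. Their part in the result was not tested, and the kit and the sampling cannot be told apart.

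**Figure D3:**
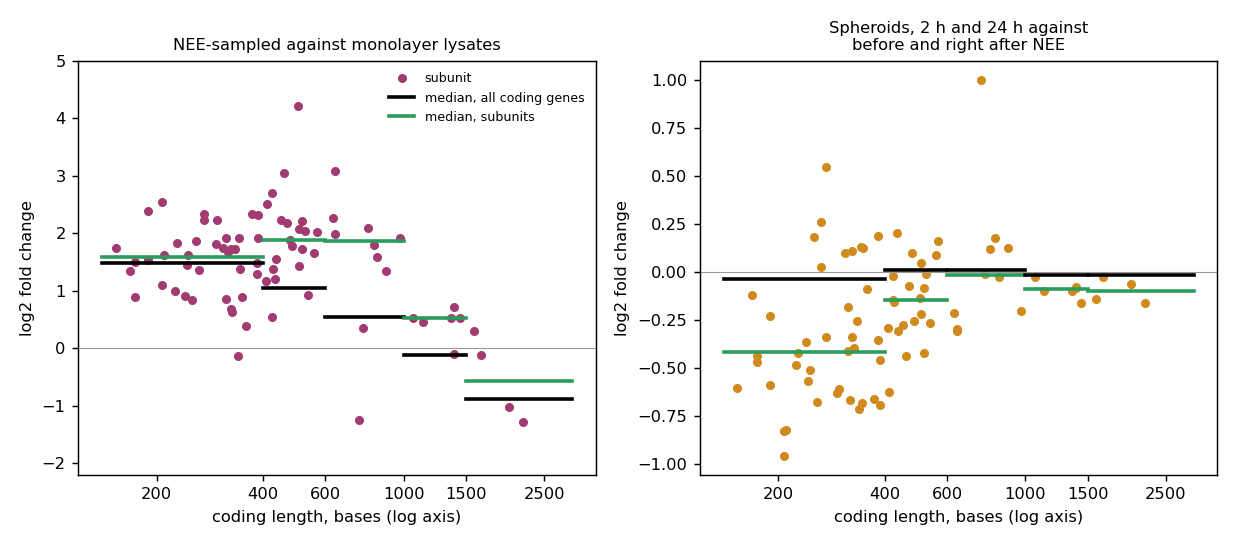
Log2 fold change of each tested member against coding length (log axis), for NEE-sampled RNA against monolayers on the left and late against early spheroids on the right. Black bars are medians of all coding genes in a length class and green bars those of the members. On the left, where COX6B2 is not drawn, the black bars fall from class to class and the green bars fall above 1000 bases. On the right the black bars stay near 0 while the green bar of the shortest class lies at −0.42.

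The other genes of the pathway were counted from lists, to be read against 22.5% of all genes higher and 26% lower. Assembly factors had 23 of 46 higher and 2 lower in NEE-sampled RNA. Among those called higher was NDUFAF3, needed for complex I assembly, at 108 ± 25.71 CPM (SD, n = 3) against 13 ± 3.18 (n = 8). The ATP synthase factor ATPAF1, and COA3 and COA4 of complex IV, were called higher too. Of 7 carriers, regulators and other isoforms 6 were higher, among them cytochrome c (CYCS, log2 fold change 0.89), HIGD2A (2.90) and the ATPase inhibitor ATP5IF1 (1.08). The tricarboxylic acid cycle enzymes split, with 4 of 13 higher and 6 lower. MDH2 (0.94) and IDH3G (1.21) rose, and DLD (−1.48) and OGDH (−1.04) fell. Of 12 transcriptional regulators 3 were higher, with ESRRA at 1.84 and YY1 at 0.93, and 6 lower, with NRF1 at −1.75 and GABPB1 at −1.10. Import and outer membrane genes had 13 of 21 higher, such as TOMM22 (2.27) and TOMM40 (2.32), and 2 lower, the chaperones HSPA9 (−1.93) and HSPD1 (−0.46).

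Against the 2 monolayer libraries before NEE alone, 62 members were higher and 2 lower (all genes 15.6% and 22.5%), with a median of 1.52. Without replicate 1 before NEE, the library with the natural killer and T cell markers, the median was 1.35. That fit leaves 1 library before NEE. Against all monolayers, leaving out 1 library at a time gave medians of 1.51 to 1.69. Scaling by library totals gave 57 higher and 3 lower, with a median of 1.26 over members and −0.53 over all genes. That scaling also turned the split of all called genes from 3847 higher and 4440 lower to 2933 and 5520.

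The lysates before and after NEE were compared next, to ask whether the subunit transcripts changed in cells that had been sampled. No group without NEE was taken at the later times, so NEE and time in culture cannot be told apart. No member was called at any time in either culture by edgeR at an adjusted p under 0.05, where 0%, 0.00561% and 0% of all genes were called in monolayers right after, 2 h after and 24 h after NEE and 0%, 0.0112% and 0% in spheroids. DESeq2 called 0 members as well, and 7, 41 and 41 of 17822 genes in monolayers and 1, 39 and 0 in spheroids. Without adjustment, p was under 0.05 in 0, 2 and 2 members in monolayers at these times, against 2.25%, 3.39% and 4.42% of all genes. In spheroids it was so in 0, 7 and 10 members, against 2.01%, 3.39% and 2.5% of all genes. All of the latter members were lower, against 1.37% of all genes lower at 2 h and 1.14% at 24 h. Both spheroid libraries lay below both libraries before NEE in 16 members right after NEE, 31 at 2 h and 33 at 24 h, against 12.1%, 14% and 11.1% of all genes.

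Late spheroids (2 h and 24 h, 4 libraries) were then set against early spheroids (before and right after NEE, 4 libraries). Here too 0 members were called (0.0112% of all genes), 14 had an unadjusted p under 0.05 (3.62% of all genes), all lower (1.56% of all genes), and the edgeR adjusted p was 1 for each. The fitted change was below 0 in 63 of 81 members against 50% of all genes, and the median was −0.20 against 0.00. In 18 members the 4 late libraries lay below the 4 early ones with no overlap, against 1.23% of all genes. In 0 members they lay above, against 1.11%. Members and this contrast were chosen with earlier results of these data known, and members share the same libraries. These counts are therefore a description and not a test. The 18 comprise 8 of complex I, 2 of complex III, 7 of complex IV and 1 of ATP synthase, and by complex the median was −0.16 in I, 0.01 in II, −0.18 in III, −0.46 in IV and −0.16 in V.

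COX8A, a small membrane subunit of cytochrome oxidase, had 19.4 and 20.16 CPM before NEE and 15.04 and 17.76 right after, then 11.23 and 7.371 at 2 h and 10.74 and 7.784 at 24 h. All late values lay below all early ones (log2 fold change −0.96 ± 0.278, unadjusted p = 0.00402, edgeR adjusted p = 1). In monolayers COX8A spanned 9.908 to 20.86 CPM with both extremes at 24 h, and its change was −0.03. COX7A2, which with COX7A2L belongs to a subunit family that shapes supercomplexes, had 44.9 and 31.99, then 29.36 and 33.49, then 26.04 and 20.65, then 20.78 and 19.46 CPM (−0.69 ± 0.204, unadjusted p = 0.00473). NDUFA4, named for complex I but a subunit of complex IV, had 75.07 and 74.69, then 60.38 and 80.21, then 54.56 and 49.46, then 53.26 and 38.81 CPM (−0.57 ± 0.175, unadjusted p = 0.00563). Neither overlapped between early and late spheroids, and edgeR's adjusted p was 1 for both.

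COX6B1, which faces the intermembrane space, had 75.59 and 68.15, then 55.04 and 63.2, then 46.98 and 38.32, then 48.4 and 30.06 CPM (−0.68 ± 0.219). NDUFA1, a small membrane subunit of complex I, had 51.51 and 37.29, then 30.4 and 28.27, then 27.28 and 17.67, then 21.15 and 16.13 CPM (−0.82 ± 0.292), with RNF113A overlapping 44.5% of its exon length. In both the late libraries were lower than the early ones, and replicate 2 was the lower of the pair at 2 h and at 24 h. COX5B (−0.46), COX7C (−0.59), UQCRQ (−0.51), NDUFS6 (−0.66) and ATP5MJ (−0.47) also separated late from early. Most members, long and short, did not separate. ATP5F1A had 1065 and 1186 CPM before NEE and 949.4 and 1258 at 24 h (−0.03), and UQCRFS1 (0.17) and COX7A2L (0.13) were above 0.

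**Figure D4:**
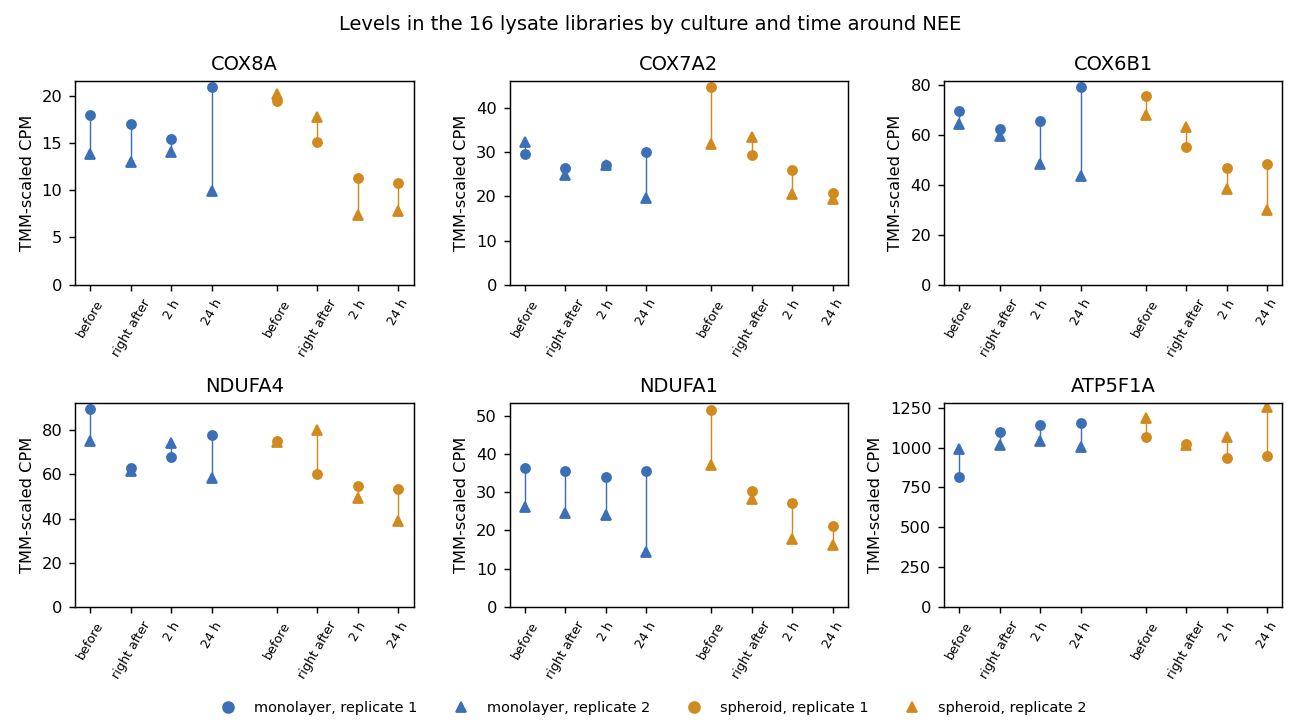
TMM-scaled CPM of 6 members in the 16 lysate libraries by culture and time around NEE, on linear axes from 0. Circles are replicate 1 and triangles replicate 2, joined by a line. In spheroids COX8A, COX7A2, COX6B1, NDUFA4 and NDUFA1 lie lower at 2 h and 24 h than before and right after NEE, while ATP5F1A overlaps.

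Coding length ran with this difference among members and not among genes at large. The 40 members of up to 400 coding bases had a median of −0.42, against −0.04 over 665 coding genes of that class, and longer classes of members had medians of −0.02 to −0.15. Across 81 members Pearson's r of the change with log2 coding length was 0.40 and Spearman's rho 0.45, against 0.01 and −0.00 across 13785 coding genes. These describe genes that share the same libraries. Within replicate 1 the median difference was −0.18 over 74 members with a mean of at least 5 CPM, and within replicate 2 it was −0.27. Leaving out 1 spheroid library at a time gave medians of −0.15 to −0.28. The natural killer and T cell markers summed to 18.77 to 57.49 CPM in early and 18.28 to 22.85 in late spheroids, and their part in the result was not tested. In lysates, fewer cells of a type and less RNA per cell cannot be told apart.

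In monolayers the same contrast had a median of 0.03, with 36 of 81 members below 0 against 51.3% of all genes, 0 called (0% of all genes) and 1 at an unadjusted p under 0.05 (3.48%), and the replicates differed in sign (0.14 and −0.13). Leaving out 1 library at a time gave medians of −0.04 to 0.11, with −0.03 without replicate 1 before NEE. The difference between the cultures, spheroid change minus monolayer change, was below 0 in 70 of 81 members against 49.2% of all genes, with a median of −0.26. No member was called (0% of all genes), 2 had an unadjusted p under 0.05 against 2.72% of all genes (COX8A at −0.93 and NDUFA4 at −0.54), and within replicates the medians were −0.43 and −0.09. Leaving out the library rich in natural killer and T cell markers gave a median of −0.17. A difference in response between spheroids and monolayers was thus not shown for any member. Of the other lists, assembly factors (−0.01), tricarboxylic acid cycle enzymes (0.00), regulators (0.04) and import genes (0.05) had medians near 0 in late against early spheroids, with 0 called.

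Spheroids and monolayers were compared over the 4 times, 8 libraries each. Of 81 members 2 were higher in spheroids and 4 lower, against 10% and 9.84% of all genes, so the share called was below that of genes at large. The median was −0.04 over members and −0.02 over all genes.

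UQCRC2, a core protein of complex III, spanned 280.6 to 401.2 CPM in spheroids with a median of 350 and 203.4 to 310.8 in monolayers with a median of 248.5 (log2 fold change 0.44 ± 0.117, edgeR adjusted p = 0.0175). The lowest spheroid libraries reached into the monolayer range. SDHC spanned 188.4 to 226.8 CPM with a median of 219 in spheroids, and 91.93 to 217.1 with a median of 160.4 in monolayers, the lowest being replicate 1 before NEE (0.46 ± 0.128, edgeR adjusted p = 0.0207). Both kept their call without that library. UQCRC2 lost it without replicate 2 of the monolayers at 2 h or 24 h or of the spheroids right after NEE or at 2 h (edgeR adjusted p = 0.0515 to 0.054). SDHC lost it without replicate 1 of the monolayers right after NEE or at 2 h, or replicate 2 of the monolayers at 24 h or of the spheroids before NEE or at 2 h (edgeR adjusted p = 0.0526 to 0.0623).

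The 4 lower members were small. ATP5MC1, a c-ring gene, spanned 41.67 to 68.42 CPM with a median of 55.56 in spheroids and 65.34 to 106.1 with a median of 82.37 in monolayers, so only the edges of the ranges met (−0.60 ± 0.128, edgeR adjusted p = 0.00525). ATP5MK, a membrane subunit of ATP synthase, spanned 6.543 to 15.69 CPM against 11.27 to 20.71 (−0.78 ± 0.184, edgeR adjusted p = 0.00904). These 2 calls held when any 1 library was left out. ATP5F1E, the epsilon subunit of the central stalk, spanned 9.198 to 20.08 CPM against 14.56 to 28.64 (−0.53 ± 0.165, edgeR adjusted p = 0.0378). NDUFB1 of complex I spanned 2.315 to 5.077 CPM against 4.085 to 8.665 (−0.82 ± 0.266, edgeR adjusted p = 0.0442), and ATP5F1E lost its call in 13 and NDUFB1 in 15 of the 16 fits that leave out 1 library, the one without replicate 1 of the monolayers before NEE among them. Without that library 2 members were higher and 3 lower. The replicate number as a block gave 5 higher and 4 lower, with 2015 higher and 1961 lower of all 17822 genes. Scaling by library totals gave 2 higher and 7 lower. It put the split of all called genes at 1472 higher and 2264 lower, against 1788 and 1754. Leaving out replicate 2 of the monolayers before NEE gave 8 higher, and leaving out replicate 2 of the monolayers at 24 h or of the spheroids at 2 h gave 0. Any of 5 other libraries gave 1. For the fits that leave out 1 library the calls over all genes are not given here, so these moves are not read as particular to members. Before NEE alone, 2 libraries each, edgeR called 0 members (1.3% of all genes). Without adjustment 7 had p under 0.05 (16.4% of all genes). DESeq2 called 1 member, and 1345 of 17822 genes. The median of 0.07 became −0.02 without replicate 1 of the monolayers, with 0 called. The replicate block called 0 members too, and 612 of all genes against 231.

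**Figure D5:**
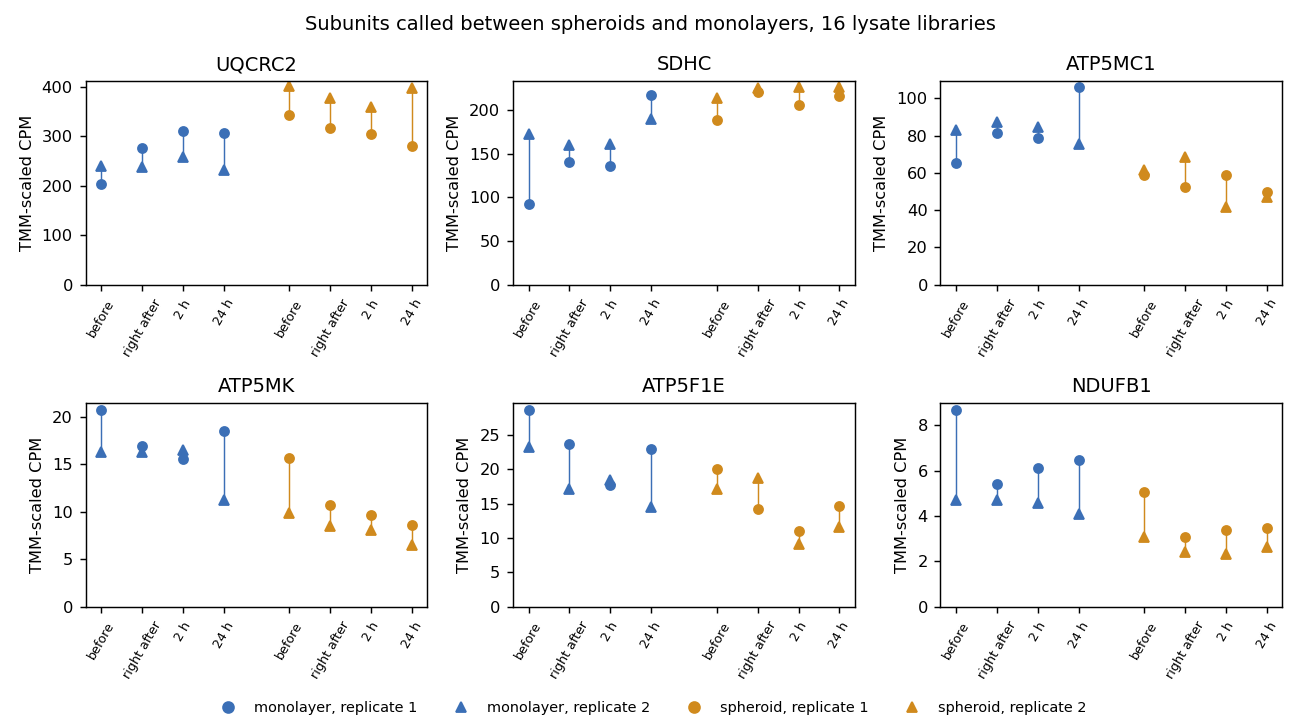
TMM-scaled CPM of the 6 members called between spheroids and monolayers, in the 16 lysate libraries by culture and time, on linear axes from 0, with circles for replicate 1 and triangles for replicate 2, joined by a line. UQCRC2 and SDHC lie mostly higher in spheroids and the other 4 mostly lower, with ranges that meet in each panel.

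Other genes of the pathway were called between the cultures, to be read against 10% of all genes higher and 9.84% lower. Cytochrome c (CYCS) stood at 215.4 ± 38.72 CPM in spheroids and 323.5 ± 71.44 in monolayers (SD, n = 8 each, log2 fold change −0.58, edgeR adjusted p = 0.0206). Of 21 import genes 6 were lower and 0 higher, among them the matrix chaperonin HSPD1 (−0.62), its partner HSPE1 (−0.69), HSPA9 (−0.46) and TIMM10 (−0.80). Among 12 regulators PPARGC1A, a coactivator of mitochondrial genes, was higher at 25.79 ± 11.01 against 5.563 ± 3.639 CPM (2.27, edgeR adjusted p = 0.00978). The mitochondrial transcription factor TFAM (−0.75) and PPARGC1B (−1.74) were lower. Assembly factors had 2 of 46 higher (COA5 at 0.83 and SDHAF4 at 1.06) and 2 lower (NDUFAF2 at −1.03 and LYRM7 at −0.71), and of 13 tricarboxylic acid cycle enzymes FH (−0.39) and IDH3A (−0.46) were lower.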

How the data were processed

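RNA-seq libraries (Smart-Seq2, per the labels) of A549 lysates and NEE-sampled RNA were read as raw counts per gene, as deposited by the authors. Per the submitters' processing notes, FastQC, Trimmomatic, HISAT2 and featureCounts were used with GRCh38. The sources used here give no versions, annotation release, strand setting or treatment of reads with several matches. All 62700 gene identifiers matched a symbol, and 58207 were placed by GENCODE 29 on GRCh38, which gave positions, coding lengths and exon overlaps. No count column was left unused.

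Tests used edgeR 4.0.16 in R 4.3.3 on the counts: TMM scaling, filterByExpr, robust quasi-likelihood tests, and p-values adjusted by Benjamini-Hochberg across every tested gene, with a threshold of 0.05. The lysate fit held 16 libraries in 8 groups (17822 genes, 8 residual degrees of freedom) and the other fit 3 NEE-sampled and 8 monolayer libraries (17067 genes, 6 degrees of freedom). Late against early and the averages over times are contrasts of these fits. Levels are CPM with TMM factors over all 19 libraries. The fits were also run on simulated counts with less spread between libraries than these data. That run therefore does not measure power or false calls here. No pair of replicates was a duplicate (mean chi-square per gene 41 to 258 within groups). Members, lists and contrasts were chosen with earlier results of these data known, and the late spheroid pattern is not independent of them.

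Named members were a fixed set by role, up to 8 called members by smallest p and the 3 largest changes of each sign among members of at least 5 CPM, plus up to 4 called genes of each list. NDUFA4, NDUFS6, UQCRQ and ATP5MJ in late spheroids, UQCR10, UQCRC2, CYCS and HSPD1 in NEE-sampled RNA, the members low in lysates and those listed with a motif fall outside this rule and were picked with their values known. The values of 1 member are counted in all sums and counts but are not reported here on their own or drawn in the plot by member. The labels number the lysate replicates but do not say what libraries of 1 number share. Lysates of 1 number were treated as paired only in an alternative fit. Over 28 pairs of same-numbered libraries, deviations from group means correlated at −0.285 to 0.487 across 9854 genes (median 0.206, 19 pairs above 0.1), and at −0.22 to 0.796 across 74 members (median 0.411, 22 pairs above 0.1). The main fit has no block, and the block is an alternative. The other alternatives were RLE and upper-quartile scaling, library totals, no filter or a stricter one (5 CPM in 2 libraries), DESeq2 1.42.0, other sets of libraries in the fit, another baseline and leaving out each library.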

Additional observations from a re-analysis of the deposited data

How the results depend on the processing

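The late minus early medians of the members in spheroids and in the interaction kept their sign in every alternative run, with −0.15 to −0.28 and −0.17 to −0.37, and 0 members were called in any. For NEE-sampled RNA against all monolayers the median was 1.75 with upper-quartile scaling, 1.26 with library totals, 1.78 with the stricter filter and 1.72 with the technical replicates summed, and the sum left 56 members higher and 1 lower. Against monolayers before NEE it was 1.65, 1.13 and 1.66 in the first 3 of these, and 1 member was lower with only the groups compared, and 50 were higher and 0 lower with the sum. Upper-quartile scaling, library totals and the stricter filter moved the median of all genes as well. Leaving out 1 library gave medians of 1.51 to 1.69 against all monolayers, and of 1.35 to 1.63 against those before NEE. The mean sum of members in NEE-sampled libraries was 19146 CPM, and 15823 in plain CPM.

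Between cultures over all times the replicate block gave 5 higher members (2015 of 17822 genes) and library totals 7 lower (2264 of 17822). No filter gave 2 lower (1827 of 35502 genes) and DESeq2 7 lower (2171 of 17822). Leaving out 1 library gave 0 to 8 higher and 2 to 5 lower. Before NEE alone DESeq2 called 1 higher, library totals gave a median of −0.09 and leaving out 1 library gave 0 to 9 higher. In monolayers leaving out 1 library moved the median from −0.19 to 0.05 right after NEE, from −0.21 to 0.02 at 2 h and from −0.06 to 0.22 at 24 h, where 0 to 2 members were called higher. The replicate block changed no other count of members by over 1.5 times, and before NEE it called 612 of all genes between cultures against 231 without it. The cause was not tested. The main lysate fit had 2 libraries a group and a biological coefficient of variation of 0.518. In that fit, changes of the size seen after NEE passed the threshold for no single member.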
